A study of Mus musculus with 15 samples.

Results

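The AP-1 transcription factors of the Batf, Fos and Jun families were followed through Tfh, Th17 and Th1 cells of the mouse. Their genes were found in the deposited table by Entrez gene ID, and all 10 listed members (Batf, Batf2, Batf3, Fos, Fosb, Fosl1, Fosl2, Jun, Junb and Jund) were present among 27179 genes. The members were listed by family, with earlier results of these data known. RNA sequencing had been done on CD4 T cells that were naive at isolation, then cultured for 3.5 days on plate-bound antibodies to CD3 and CD28, and sorted. The Tfh cells had been sorted as CXCR5 positive and IL-17A negative, whereas Th1 cells had been taken by their interferon gamma signal. How the Th17 cells were gated, and which cytokines were added to each culture, is not given in the sources used here. Each condition had 5 libraries, and all 15 came from mice of the genotype B6.Cg-Ifngtm3.1Lky-Il17atm1.1Lky, so every group carried the altered Ifng and Il17a alleles and no group was free of them. No label ties the 5 libraries of a condition to different animals or culture wells. The p-values therefore reflect variation among these libraries only, and that variation may be technical.

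AP-1 is not a single protein but a set of dimers built from bZIP proteins, each with a basic region that touches DNA and a leucine zipper that joins the partners. Jun proteins can pair with each other or with Fos or Batf proteins, whereas Fos proteins need a Jun partner. Batf and Batf3 lack the transactivation domains of c-Fos, pair with Jun proteins, and bind with IRF4 or IRF8 at composite sites. In mice Batf is needed for Th17 and Tfh cells, Junb is needed for the Th17 programme, and T cell receptor signals raise Fos and Jun through the MAP kinases.

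The library totals had a median of 10.5 M counts, the lowest being 4.87 M (Tfh replicate 1) and the highest 25.2 M (Th1 replicate 3). The labels were checked against defining genes, of which Ifng, Il17a and Cxcr5 were acted on by the sorts. Cxcr5 was at 168 ± 14.1 CPM across Tfh libraries, 38.9 ± 4.75 in Th17 and 10.3 ± 2.13 in Th1 libraries (SD, n = 5 here and below), where CPM is a gene's count scaled to library size so that libraries can be compared. Tbx21, the Th1 regulator, was at 3.77 ± 0.833 CPM across Tfh libraries, 2.55 ± 1.08 in Th17 and 181 ± 58.0 in Th1. The 10 T cell genes summed to 7125 to 9363 CPM across Tfh libraries, 5973 to 7244 in Th17 and 3738 to 5359 in Th1, and 7 of them were called higher and 1 lower in Tfh than in Th1, and 7 higher in Th17 than in Th1. Of all genes tested, 24.1% were called higher and 25.2% lower in Tfh than in Th1, and 19.0% higher in Th17 than in Th1. Cd4 was at 551 ± 30.2 CPM across Tfh libraries, 550.5 ± 71.9 in Th17 and 592 ± 117 in Th1, whereas Trac was at 2091 ± 439 CPM across Tfh libraries, 1469 ± 113 in Th17 and 762.3 ± 154 in Th1. The B cell genes Ms4a1 and Pax5 had no count in Tfh or Th17 libraries, and all 6 B cell markers together summed to at most 3.39 CPM in any library. In bulk RNA, fewer cells of a type and less RNA per cell cannot be told apart.

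Fos, Fosl2 and Batf3 were the members called different in all 3 comparisons, and their RefSeq promoter windows on GRCm38.p6 are shown for that reason. Each window holds 250 bases before and 50 from the start site on, 5′ to 3′ on the strand of the gene, which is the plus strand for all of them. Fos lies on chromosome 12 (85473890 to 85477274), Fosl2 on chromosome 5 (32136472 to 32157840) and Batf3 on chromosome 1 (191098414 to 191108943). Of the other abundant members, Batf lies on chromosome 12 (85686720 to 85709087), Jun on chromosome 4 (95049036 to 95052222), Junb on chromosome 8 (84976909 to 84978748) and Jund on chromosome 8 (70697739 to 70700616). Capitals mark every match to a motif that was searched for on both strands.
Fos promoter (chr12:85473640-85473939): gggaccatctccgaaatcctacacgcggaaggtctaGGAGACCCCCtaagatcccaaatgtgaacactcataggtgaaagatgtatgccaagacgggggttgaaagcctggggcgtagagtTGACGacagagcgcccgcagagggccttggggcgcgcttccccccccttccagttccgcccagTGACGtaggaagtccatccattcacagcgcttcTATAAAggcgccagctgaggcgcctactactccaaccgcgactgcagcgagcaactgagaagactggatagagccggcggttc
Fosl2 promoter (chr5:32136222-32136521): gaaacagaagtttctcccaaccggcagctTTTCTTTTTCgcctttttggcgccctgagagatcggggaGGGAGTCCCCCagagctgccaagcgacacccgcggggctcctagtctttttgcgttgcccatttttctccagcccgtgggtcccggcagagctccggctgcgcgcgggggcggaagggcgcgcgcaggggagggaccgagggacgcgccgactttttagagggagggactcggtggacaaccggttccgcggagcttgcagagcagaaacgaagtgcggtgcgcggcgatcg
Batf3 promoter (chr1:191098164-191098463): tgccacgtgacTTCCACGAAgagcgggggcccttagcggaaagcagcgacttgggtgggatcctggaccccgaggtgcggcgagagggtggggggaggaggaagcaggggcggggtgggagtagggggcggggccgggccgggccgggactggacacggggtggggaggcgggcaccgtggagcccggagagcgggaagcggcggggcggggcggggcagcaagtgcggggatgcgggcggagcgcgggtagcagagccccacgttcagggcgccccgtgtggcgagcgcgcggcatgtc
In the Fos window the capitals are an NF-kB site match, the cAMP response element core TGACG at positions -129 and -66, and a TATA box (TATAAA) at -33, counted from the start site to the first base of the match. In the Fosl2 window they are an interferon-stimulated response element match (on the minus strand) at -221 and an NF-kB match on each strand that overlap each other. In the Batf3 window they are a STAT site match (TTCNNNGAA) at -239. Of all 32851 windows of that length, 20.8% hold TGACG, 13.6% TATAAA, 4.51% the NF-kB site, 3.44% the interferon-stimulated response element and 8.30% the STAT site. The AP-1 site TGANTCA was in 7.81% of all windows and in none of the 8 windows available for the members, and neither were the AP-1 and IRF composites in their adjacent (0.125%) and spaced (0.119%) forms, the full cAMP response element TGACGTCA (1.79%) or the CArG box (1.63%). The AP-1 site lies inside each composite, and TGACG inside TGACGTCA. A match in such a window is a description of letters and not a site shown to be bound. An absence covers only these 300 bases at the RefSeq start site, and sequence outside them was not searched.

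Of the 10 members, 9 passed the filter on low counts and were tested, and Batf2 did not pass. The tests were edgeR quasi-likelihood tests over 12591 genes, with calls made where the p adjusted by Benjamini-Hochberg was below 0.05. In Tfh against Th17 cells 1 member was called higher (Fos) and 2 lower (Fosl2, Batf3), against a background of 6.80% of all genes called higher and 9.98% called lower (16.8% in either direction). Over all genes called in that comparison 40.5% were higher in Tfh, and 50.7% were with the GC correction described further on. In Tfh against Th1 cells 2 members were called higher (Fos, Jun) and 2 lower (Fosl2, Batf3), against 24.1% and 25.2% of all genes (49.3% in either direction). In Th17 against Th1 cells the same count was called in each direction (Fos and Jun higher, Fosl2 and Batf3 lower), against 19.0% and 17.8% (36.9% in either direction). The libraries of 3 members did not overlap in each comparison among those tested, against 14.5% of all genes in Tfh against Th17, 34.3% in Tfh against Th1 and 28.8% in Th17 against Th1. The 3 comparisons share their libraries in pairs, so they are not independent of each other. Batf3 passed the filter through its Th1 libraries and so had to differ from them.

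**Figure D1:**
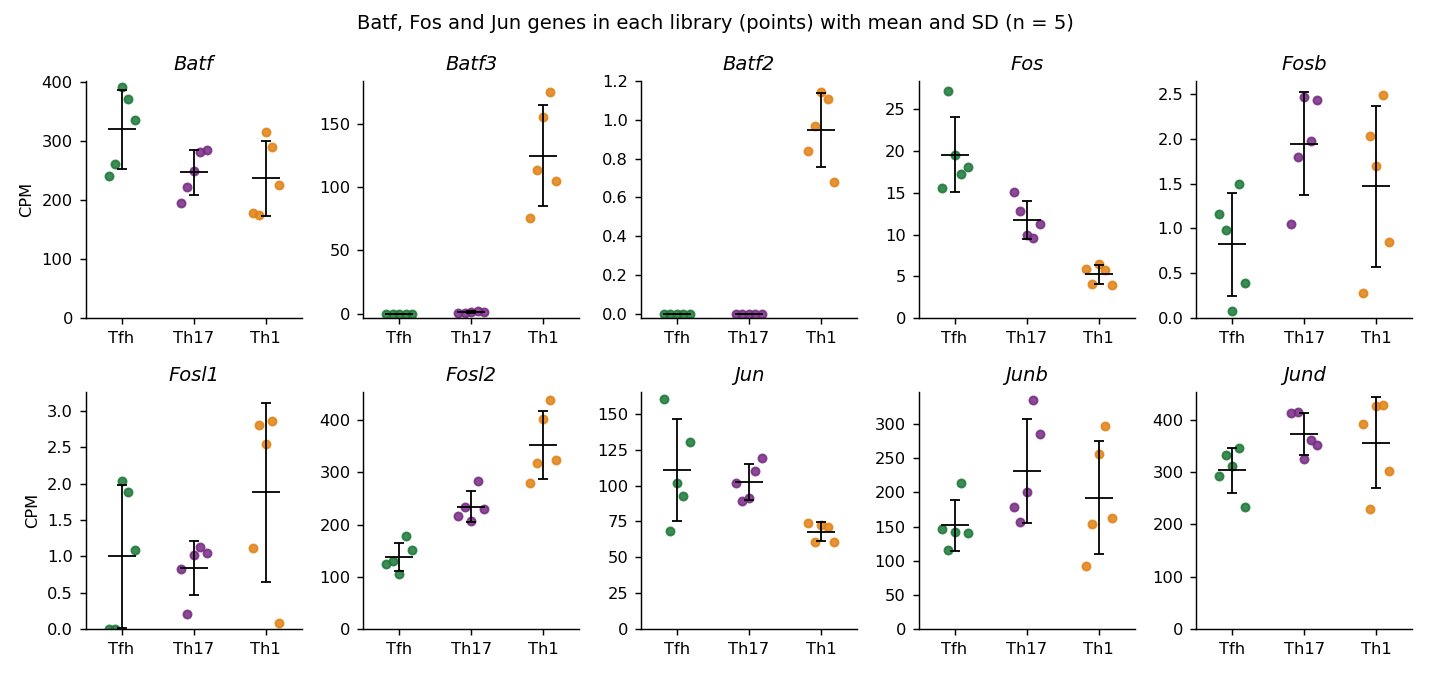
CPM of each of the 10 genes (vertical axes, separate scales) in Tfh, Th17 and Th1 libraries, with each point a library and bars for the mean and SD of 5. Fosl2 and Batf3 climb from Tfh over Th17 to Th1, where Fosl2 averaged 138, 234 and 352 CPM, while Fos runs the other way at 19.6, 11.7 and 5.25 CPM.

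Among the Fos proteins, Fos and Fosl2 moved in opposite directions. Fos encodes c-Fos, the classical immediate early partner of Jun. It was at 15.6, 27.2, 19.6, 17.3 and 18.1 CPM in the 5 Tfh libraries. The Th17 libraries had 15.1, 12.8, 9.93, 9.60 and 11.2 CPM, and the Th1 libraries 5.88, 4.06, 6.48, 5.81 and 3.998 CPM. Every Tfh library lay above every Th17 library, and every Th17 library above every Th1 library, with Tfh replicate 1 and Th17 replicate 1 close to each other. Fos was 1.67-fold higher in Tfh than in Th17 cells (0.74 ± 0.22 on the log2 scale with its SE, as in all comparisons here, edgeR adjusted p = 0.0240). That call was lost without Tfh replicate 2 (0.61, with 0.0667 as the edgeR adjusted p), and also when Th17 replicate 3 (0.70 and 0.0606) or Th17 replicate 4 (0.69 and 0.0504) was left out. Against Th1 cells Fos was 3.72-fold higher in Tfh (1.89 ± 0.23, edgeR adjusted p = 1.32e-06) and 2.23-fold higher in Th17 (1.15 ± 0.22, edgeR adjusted p = 0.000461).

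Fosl2 encodes Fra-2, which lacks the transactivation domain of c-Fos and has been described as a regulator of the Th17 programme in mice. It was at 124, 131, 106, 178 and 150.4 CPM in Tfh libraries. In Th17 libraries it was at 216, 234, 207, 284 and 230.5 CPM, and in Th1 libraries at 279.8, 319, 401, 438 and 323 CPM. All Tfh libraries lay below all others, while Th17 replicate 4 and Th1 replicate 1 overlapped by a small margin. Fosl2 was 1.70-fold lower in Tfh than in Th17 cells (-0.76 ± 0.15, edgeR adjusted p = 0.00200) and 2.56-fold lower in Tfh than in Th1 cells (-1.35 ± 0.16, edgeR adjusted p = 9.53e-07). It was also 1.505-fold lower in Th17 than in Th1 cells (-0.59 ± 0.15, edgeR adjusted p = 0.00538). These 3 calls held in every alternative that was run.

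The balance of these genes can be read within each library, free of library scaling. The log2 ratio of Fosl2 counts to Fos counts, with 0.5 added to each, averaged 2.82 ± 0.457 in Tfh, 4.33 ± 0.379 in Th17 and 6.07 ± 0.32 in Th1 libraries. Its range was 2.26 to 3.36 in Tfh, 3.83 to 4.88 in Th17 and 5.56 to 6.32 in Th1, so no condition overlapped another. The difference was -1.51 for Tfh against Th17, -3.25 for Tfh against Th1 and -1.74 for Th17 against Th1. Each had an exact two-sided permutation p = 0.00794 (0.0119 adjusted over the 9 ratio tests), the smallest p that 5 against 5 libraries allow. The ratio joins 2 genes already called in opposite directions in the same libraries, so its p-values add no separate support.

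**Figure D2:**
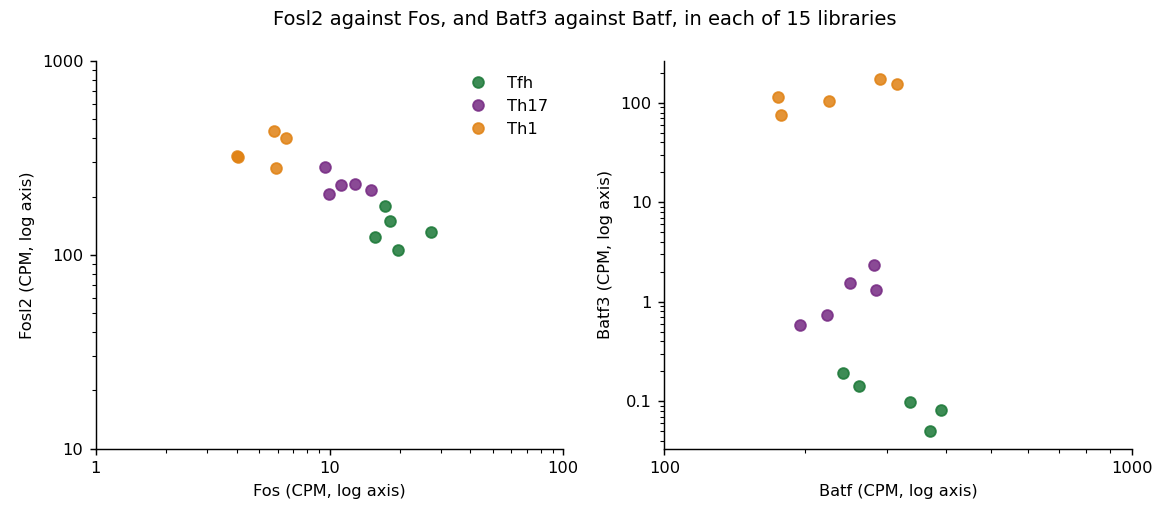
Fosl2 against Fos (left) and Batf3 against Batf (right) in CPM on log axes, with 1 point per library coloured by condition and a Batf3 count of 0 drawn at 0.05 CPM. The 3 conditions form separate groups in both panels, from high Fos with low Fosl2 in Tfh to low Fos with high Fosl2 in Th1, and by Batf3 far more than by Batf.

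Fosb and Fosl1, an immediate early gene and the gene of Fra-1, were close to the limit of detection. Fosb was at 1.16, 0.988, 0.0816, 1.49 and 0.395 CPM across Tfh libraries, 1.05, 1.80, 2.46, 1.98 and 2.44 in Th17, and 0.280, 2.03, 1.69, 2.49 and 0.851 in Th1 libraries. Fosl1 was listed with no count in Tfh replicates 1 and 2 and at up to 2.04 CPM in the other Tfh libraries, against 0.211 to 1.13 CPM in Th17 and 0.0851 to 2.86 CPM in Th1. All conditions overlapped for both genes, and neither passed in any comparison. The log2 fold changes of Fosb were -1.28 ± 0.65 for Tfh against Th17, -0.89 ± 0.65 for Tfh against Th1 and 0.39 ± 0.62 for Th17 against Th1. Those of Fosl1 were 0.32 ± 0.86, -0.83 ± 0.84 and -1.15 ± 0.85 in the same order. A condition held 33 to 104 counts of Fosb and 45 to 129 of Fosl1, and the libraries of a condition differed widely, with 1 to 60 counts of Fosl1 per Th1 library.

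Among the Batf genes, Batf3 had 4 counts in all Tfh libraries, 70 in Th17 and 8512 in Th1. Batf3 encodes a short bZIP protein that is best known as a factor of cross-presenting dendritic cells. It had 1, 1, 1, 0 and 1 counts in the 5 Tfh libraries, which is 0.193, 0.141, 0.0816, 0 and 0.0987 CPM. In Th17 libraries it was at 0.585, 0.740, 1.53, 2.35 and 1.31 CPM, and in Th1 libraries at 75.3, 113, 155, 175 and 105 CPM. No condition overlapped another. Batf3 fell in Th17 against Th1 cells by 6.54 ± 0.33 on the log2 scale, or 93.1-fold (edgeR adjusted p = 2.06e-11). In Tfh against Th1 cells its fitted log2 fold change was -10.26 ± 0.46 (edgeR adjusted p = 2.00e-12), a value that depends on the few Tfh counts. Batf3 passed the filter on low counts through its Th1 libraries, so both p-values against Th1 add no support. The 4 Tfh counts and 8512 Th1 counts gave a 1493-fold lower level in Tfh, with an exact 95% interval of 583 to 5481 that covers counting error only. Between Tfh and Th17 cells the 4 and 70 counts gave a 15.1-fold lower level in Tfh (interval 5.63 to 56.9), with a fitted log2 fold change of -3.72 ± 0.62 (edgeR adjusted p = 0.000359). That call was not made by limma-voom (-3.15, adjusted p = 0.0672), and Batf3 was filtered out when Tfh and Th17 libraries were fitted alone.

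Markers of dendritic and other myeloid cells, in which Batf3 is well known, were measured beside it. The 8 such markers summed to 2.49 to 7.34 CPM in Tfh libraries, 1.31 to 5.97 in Th17 and 0.387 to 1.96 in Th1, where Batf3 was highest. The 1 marker of the 8 that passed the filter on low counts, Xcr1, was called higher in Tfh and in Th17 than in Th1. Cd14, Flt3 and Adgre1 had their highest means in Th1 (24, 16 and 7 counts). Itgax and Csf1r had theirs in Th17 (13 and 32 counts), and Lyz2, Itgam and Xcr1 in Tfh (4, 21 and 161 counts). Lyz2 and Itgax had no count in any Th1 library. The part of such cells in the Batf3 result was not tested. Markers of natural killer cells summed to 0 to 2.12 CPM across Tfh libraries, 2.17 to 4.75 in Th17 and 4.59 to 6.02 in Th1, and Trdc, the gamma-delta T cell receptor constant gene, was at 15.1 ± 5.57 CPM across Tfh libraries, 6.45 ± 1.39 in Th17 and 31.9 ± 8.79 in Th1. Cd8a, a CD8 T cell marker, had no count in any Tfh library, and was at 0 to 0.936 CPM across Th17 libraries and 1.12 to 10.4 in Th1. It was called lower in Th17 than in Th1 (-4.45 ± 0.90, edgeR adjusted p = 0.00124) and in Tfh than in Th1 (edgeR adjusted p = 8.41e-05). Cd8a passed the filter on low counts through its Th1 libraries, so these p-values add no support. The other CD8 T cell marker, Cd8b1, was called in no comparison, at 7.33 ± 2.32 CPM across Tfh libraries, 10.3 ± 3.54 in Th17 and 11.4 ± 3.898 in Th1. Trdc, Cd8a and the natural killer cell marker Eomes had their highest means in Th1 libraries. So did Sox13, the other gamma-delta T cell marker found, with 136 counts in Th1, 3 in Th17 and 0 in Tfh. Eomes averaged 4.496 CPM in Th1, against 0.264 in Tfh and 0.119 in Th17. Klre1, another natural killer cell marker, had its highest mean in Th17, at 3.146 CPM against 0.8799 in Th1. Klrb1c averaged 0.4217 CPM in Tfh and 0.4087 in Th17. Whether natural killer, gamma-delta or CD8 T cells had a part in the Batf3 result was not tested. Of the 6 natural killer cell markers, Ncr1, Klrb1c, Klra4 and Klra8 had no count in any Th1 library.

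Batf2, whose product is known in mouse macrophages as a gene induced by interferon gamma, was counted in Th1 cells and in no other condition. It had no count in any Tfh or Th17 library, which allows up to 0.0671 CPM over the Tfh libraries and 0.0578 CPM over the Th17 libraries (3 counts of each condition's total). In Th1 libraries it was at 0.840, 0.966, 1.14, 1.11 and 0.681 CPM, from 63 counts in all. Its level was therefore at least 14.7-fold lower in Tfh and at least 17.1-fold lower in Th17 than in Th1 cells, with 3 counts over the condition as the floor. Without a filter on low counts, edgeR's quasi-likelihood test placed it lower with an adjusted p of 0.0027 in Tfh and 0.00302 in Th17 against Th1. Batf2 is in that fit only through its Th1 counts and could not have come out higher, so these p-values add no support.

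Batf itself differed far less between conditions than Batf3. It was at 241, 260.5, 390.3, 371 and 335 CPM in Tfh libraries. Values in Th17 libraries were 195, 223, 249, 281 and 284 CPM, and those in Th1 libraries 178, 175, 314, 289.9 and 225 CPM. The libraries of all conditions overlapped, with the highest 3 values of all in Tfh. The log2 fold change was 0.37 ± 0.18 for Tfh against Th17 (edgeR adjusted p = 0.183), 0.43 ± 0.18 for Tfh against Th1 (0.0578 by edgeR) and 0.06 ± 0.18 for Th17 against Th1 (0.834 by edgeR), and none passed. With a correction for transcript GC content Batf passed against Th17 (0.40, edgeR adjusted p = 0.0124) and against Th1 (0.46, edgeR adjusted p = 0.00148). Among further alternatives, Tfh against Th1 passed without Th1 replicate 3, Th1 replicate 4, Tfh replicate 1 or Tfh replicate 2, with limma-voom and with library size only (adjusted p from 0.0215 to 0.0468). The log2 ratio of Batf counts to Batf3 counts was 11.1 ± 1.23 in Tfh, 7.66 ± 0.573 in Th17 and 0.943 ± 0.256 in Th1 libraries, and the 3 differences each had an exact permutation p = 0.00794 (0.0119 adjusted). Since Batf3 passed the filter through its Th1 libraries, the p-values against Th1 add no support. In Tfh the ratio rests on 4 Batf3 counts over the condition and on the 0.5 added to each count. In Th1 libraries that ratio ran from 0.63 to 1.24, so Batf kept the higher count in each of them.

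**Figure D3:**
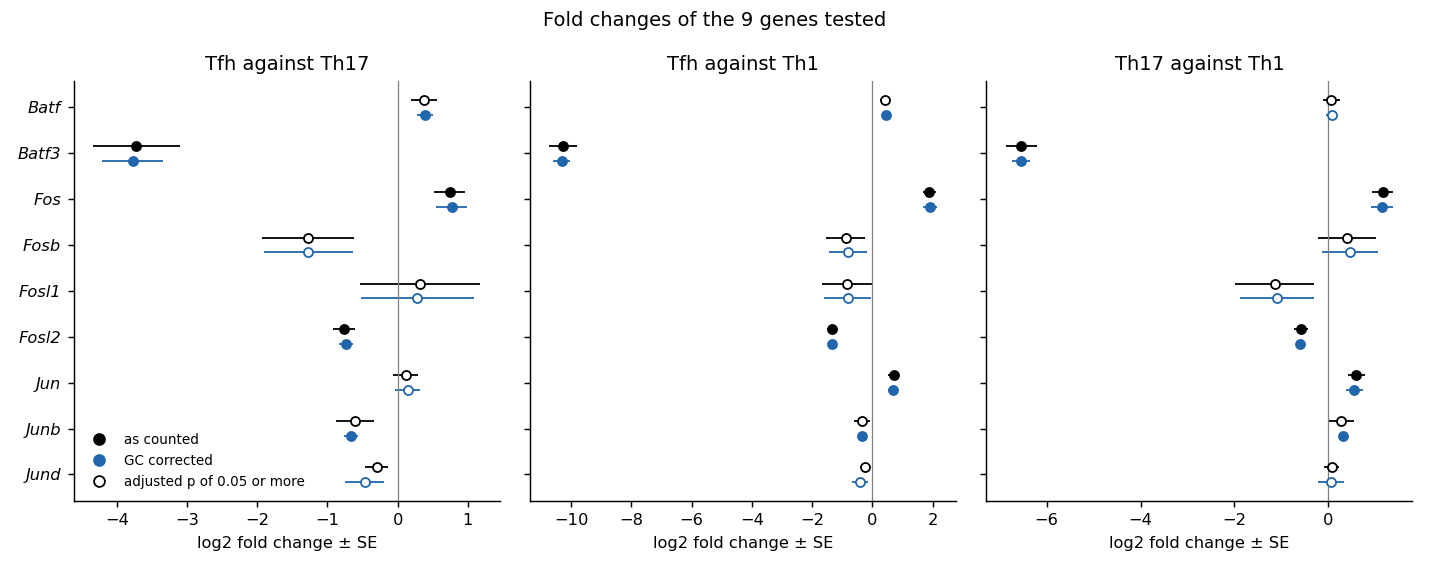
Log2 fold changes with SE (horizontal axes, separate scales) of the 9 genes tested in the 3 comparisons, from counts as deposited (black) and with the GC correction (blue), filled where the edgeR adjusted p was under 0.05. Fos, Fosl2 and Batf3 were filled in all 3 panels both ways, while Junb was filled only with the GC correction.

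The Jun genes supply a partner to every Batf and Fos dimer. Jun, which encodes c-Jun, was at 160.5, 68.6, 102, 92.6 and 131 CPM in Tfh libraries. In Th17 libraries it was at 102, 89.5, 91.1, 110.1 and 119 CPM, and in Th1 libraries at 73.8, 60.7, 72.7, 71.4 and 60.8 CPM. Every Th17 library and 4 of 5 Tfh libraries lay above all Th1 libraries, and Tfh replicate 2 lay among them. Jun was 1.63-fold higher in Tfh cells against Th1 (0.71 ± 0.18, edgeR adjusted p = 0.00339) and 1.51-fold higher in Th17 than in Th1 cells (0.59 ± 0.18, edgeR adjusted p = 0.0149). In Th17 against Th1 cells that call was lost when Th1 replicate 5 (0.52, with 0.0537 as the edgeR adjusted p) or Th17 replicate 5 (0.49 and 0.0612) was left out. Between Tfh and Th17 cells the difference was 0.11 ± 0.18 and did not pass (edgeR adjusted p = 0.732).

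Junb, which encodes the Jun partner that Th17 cells need, varied widely within conditions. It was at 147, 115, 142, 214 and 139.9 CPM in Tfh libraries. Values in Th17 libraries were 178, 156.5, 200.0, 335 and 285 CPM, and those in Th1 libraries 91.9, 153, 256, 298 and 163 CPM. The conditions overlapped, and within Th1 the highest library held 3.24 times the lowest. None of its comparisons passed: -0.61 ± 0.27 for Tfh against Th17 (edgeR adjusted p = 0.147), -0.34 ± 0.27 for Tfh against Th1 (0.316 by edgeR) and 0.26 ± 0.27 for Th17 against Th1 (0.486 by edgeR).

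Jund, whose product is often described as restraining growth, was the most counted Jun gene. It was at 292, 332, 311, 346 and 234 CPM in Tfh libraries. The Th17 libraries had 412, 416, 324, 361 and 351 CPM, and the Th1 libraries 392, 230.1, 427, 429 and 301 CPM. All conditions overlapped and none of the comparisons passed (-0.30 ± 0.16 for Tfh against Th17, -0.23 ± 0.16 for Tfh against Th1 and 0.07 ± 0.16 for Th17 against Th1, with edgeR adjusted p = 0.232, 0.248 and 0.782). The log2 ratio of Junb to Jund counts averaged -1.02 ± 0.336 in Tfh, -0.744 ± 0.562 in Th17 and -0.966 ± 0.645 in Th1 libraries. No difference in that ratio passed (exact permutation p = 0.373 for Tfh against Th17, 0.873 for Tfh against Th1 and 0.603 for Th17 against Th1; 0.480, 0.873 and 0.679 adjusted).

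Several of these transcripts are rich in G and C, and libraries of the same condition differed in how their levels followed GC content. Spearman's rho across genes, between a library's deviation from its condition's mean and transcript GC content, ran from -0.664 in Th1 replicate 1 to 0.717 in Th1 replicate 4. The Junb transcript is 62.6% GC, above 98.5% of genes, that of Batf3 62.8% (98.7%), that of Jund 67.2% (99.7%) and that of Batf 56.7% (85.1%). When a smooth trend on GC was taken out of every library, the SD of Junb's log2 level within conditions shrank to 0.090 in Tfh, 0.146 in Th17 and 0.182 in Th1, against 0.325, 0.464 and 0.670 before it in the same order. After the correction Junb lay at 130.5 to 154 CPM across Tfh libraries, 190.5 to 248 in Th17 and 144 to 203 in Th1 libraries, so that Tfh and Th17 no longer overlapped. In that fit Junb was lower in Tfh than in Th17 cells (-0.66, edgeR adjusted p = 3.03e-05) and than in Th1 cells (-0.34, edgeR adjusted p = 0.00546), and higher in Th17 than in Th1 cells (0.32, edgeR adjusted p = 0.0112).

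The correction did not act alike on all members. The SD of Batf3 shrank to 0.114 in Th1, against 0.482 before, and grew to 0.593 in Tfh, against 0.384 before, where 4 counts carried it, and that of Fosl2 in Th1 to 0.078, against 0.264. The SD of Jund grew instead, to 0.331 in Tfh, 0.514 in Th17 and 0.551 in Th1, against 0.221, 0.155 and 0.389 before in the same order, and Jund passed in no comparison either way. The median SD over all genes tested shrank to 0.306 in Tfh, 0.231 in Th17 and 0.264 in Th1, against 0.349, 0.316 and 0.382 before.

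**Figure D4:**
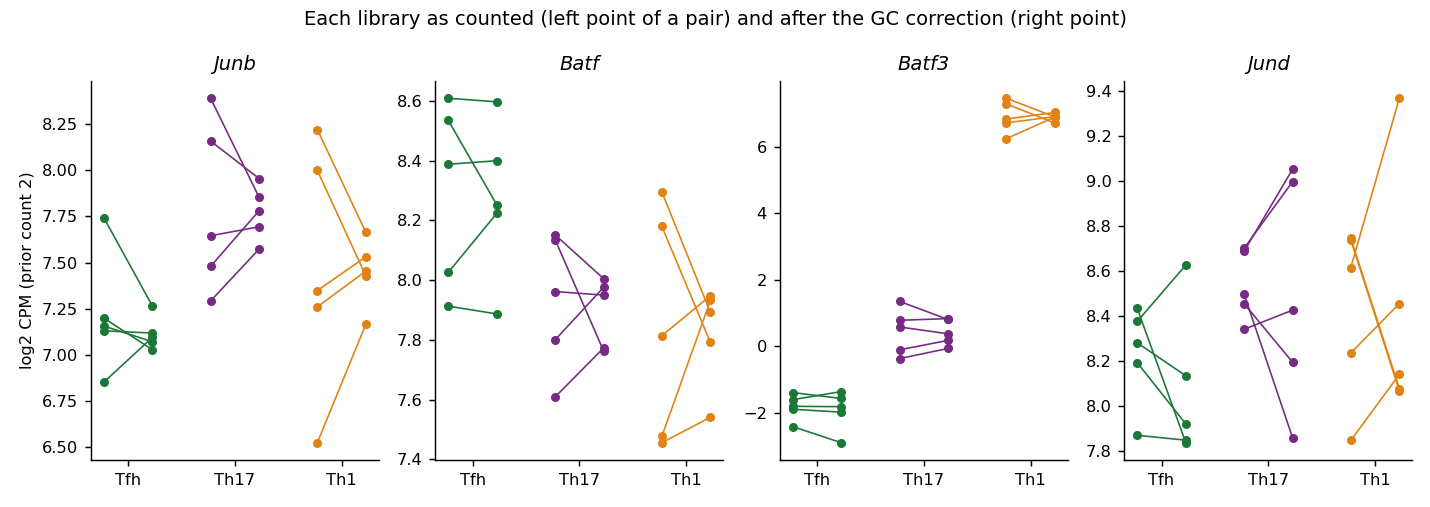
Log2 CPM of Junb, Batf, Batf3 and Jund in each library, as counted (left point of each pair) and after the GC correction (right point), joined by a line and coloured by condition. The Junb libraries of each condition and the Batf3 libraries of Th1 draw together after the correction, with a Junb SD of 0.090 in Tfh, whereas the Jund libraries spread to an SD of 0.514 in Th17.

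To compare members with each other, CPM was divided by the length of the longest GENCODE transcript linked to a RefSeq mRNA (955 bases for Batf, 801 for Batf3, 1668 for Jund, 1809 for Junb, 3189 for Jun, 2108 for Fos and 6537 for Fosl2). The Jund transcript used is shorter than the gene's span in RefSeq, so its per-length level depends on that choice. On this per-length level Batf led in all conditions by its mean, at 334.5 ± 69.3 CPM per kb in Tfh, 258 ± 40.0 in Th17 and 248 ± 66.6 in Th1 libraries. Batf was first in 5 of 5 Tfh libraries, 3 of 5 Th17 libraries and 4 of 5 Th1 libraries, and Jund was first in the remaining ones. In Tfh cells the ranges of Batf and Jund did not overlap, whereas in Th17 and Th1 cells they did and the order of the leading pair was not beyond the spread. Jund followed at 182 ± 26.1 CPM per kb in Tfh, 223.5 ± 23.9 in Th17 and 213 ± 52.2 among Th1 libraries.

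The gene behind Batf and Jund differed between conditions. In Tfh it was Junb, at 83.8 ± 20.4 CPM per kb, and likewise in Th17, at 128 ± 42.1, whereas in Th1 it was Batf3, at 156 ± 50.1, ahead of Junb at 106 ± 46.0 in each of the 5 Th1 libraries, although the ranges over libraries overlapped. Jun stood at 34.8 ± 11.2 CPM per kb in Tfh, 32.1 ± 3.95 in Th17 and 21.3 ± 2.06 in Th1, and Fosl2 at 21.1 ± 4.23, 35.8 ± 4.598 and 53.9 ± 9.96 in the same order. Jun was above Fosl2 in 5 of 5 Tfh libraries, Fosl2 above Jun in 4 of 5 Th17 libraries, and Fosl2 above Jun in 5 of 5 Th1 libraries, with ranges that overlapped in Tfh and Th17 but not in Th1. Fos, at 9.28 ± 2.14 CPM per kb in Tfh, 5.56 ± 1.07 in Th17 and 2.49 ± 0.541 in Th1, was second to Fosl2 among the Fos genes in all 3 conditions. At the low end, the ranges of Fosb and Fosl1 overlapped in all 3 conditions.

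As shares of the summed per-length level of the 10 genes, Batf made up 49.9 ± 5.43% in Tfh, 37.6 ± 3.26% in Th17 and 30.8 ± 1.96% in Th1 libraries. The Tfh libraries (43.1 to 55.8%) lay above all Th17 (32.8 to 41.2%) and Th1 libraries (29.2 to 33.3%). Batf3 made up 0.0208 ± 0.0156% in Tfh, 0.231 ± 0.108% in Th17 and 19.3 ± 3.02% in Th1. Together the Batf genes came to 49.9 ± 5.42% in Tfh, 37.8 ± 3.33% in Th17 and 50.1 ± 3.43% in Th1, from Batf with hardly any Batf3 in Tfh and from both genes in Th1. The Jun genes came to 45.4 ± 5.14% in Tfh, 56.0 ± 2.99% in Th17 and 42.6 ± 3.63% in Th1, and the Fos genes to 4.71 ± 0.726%, 6.19 ± 0.433% and 7.31 ± 0.731% in the same order. These shares are descriptions with no test, and messenger RNA shares are not protein shares. By coding length Batf was first in 5 of 5 libraries of each condition. Without a length correction Batf was first in 3 of 5 Tfh libraries, Jund in 5 of 5 Th17 libraries and Fosl2 in 3 of 5 Th1 libraries. By coding length the Fos genes came to 10.29% in Tfh, 15.78% in Th17 and 19.09% in Th1. Without a length correction they came to 15.27, 20.68 and 27.22% in the same order. The Batf genes came to 54.04, 41.1 and 50.04% by coding length, and to 30.47, 20.58 and 26.86% without a length correction. The first member of a condition and the family shares thus depend on the lengths used.

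**Figure D5:**
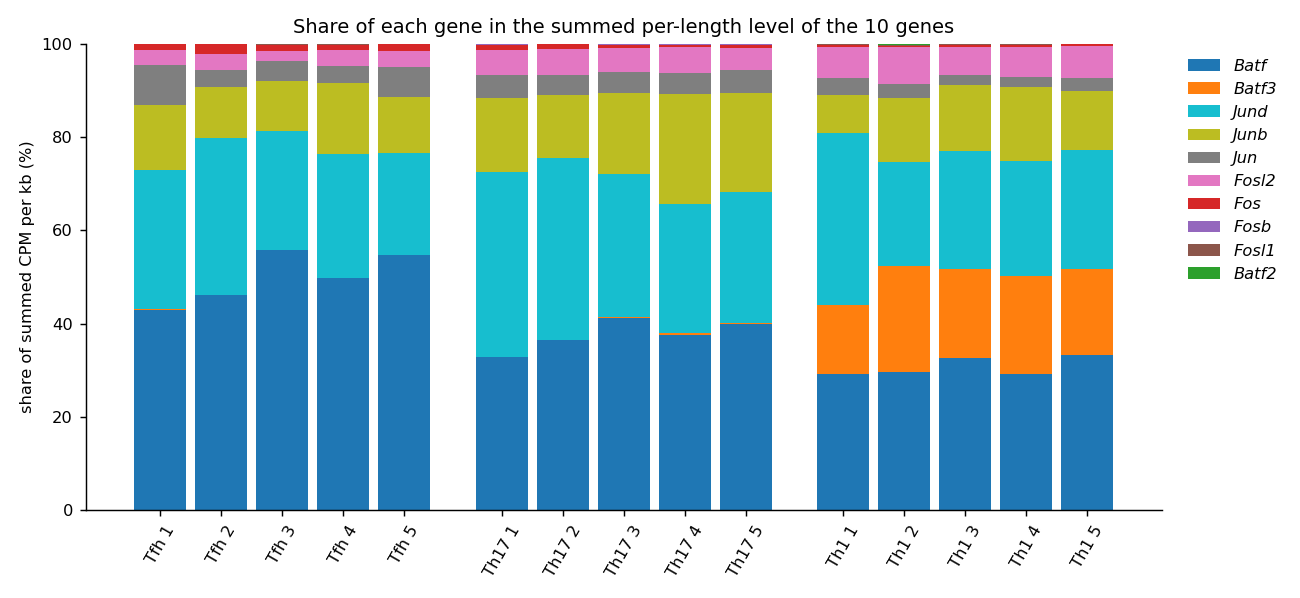
Share of each gene in the summed CPM per kb of the 10 genes (vertical axis, percent), with 1 bar per library and the libraries ordered by condition and replicate. The Batf segment is widest in Tfh libraries (43.1 to 55.8%), and a Batf3 segment of 14.8 to 22.8% is visible in Th1 libraries alone.

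Fos and Batf lie on the same stretch of chromosome 12, with another bZIP gene, Jdp2, between them in the RefSeq annotation. Jdp2 encodes Jun dimerization protein, a repressor of AP-1. It was at 26.0 ± 6.40 CPM across Tfh libraries, 9.06 ± 2.19 in Th17 and 4.38 ± 1.65 in Th1 libraries. Jdp2 was 2.86-fold higher in Tfh than in Th17 cells (1.52 ± 0.27, edgeR adjusted p = 0.000580) and 5.79-fold higher against Th1 cells (2.54 ± 0.28, edgeR adjusted p = 4.62e-07). Its order over the conditions was thus the order of Fos.

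Other bZIP factors, which share partners or sites with AP-1, were described from a list of 30, of which 28 were tested. Over all genes tested 16.8% were called in Tfh against Th17, 49.3% in Tfh against Th1 and 36.9% in Th17 against Th1. The counts of this list and of those below stand beside these shares, and no list was tested as a set. In Tfh against Th17 cells 7 rose, 5 fell and 16 did not pass, with a median log2 fold change of 0.14 beside -0.01 over all genes. Among called genes with at least 10 CPM in the higher condition and no overlap of libraries, the rule by which genes of all these lists are named, Jdp2 rose most and Nfil3, a bZIP repressor, fell most (2.57-fold, -1.36 ± 0.18, edgeR adjusted p = 3.06e-05). Against Th1 cells 8 rose and 12 fell in Tfh, and 6 rose and 12 fell in Th17. Maf, the large Maf factor of Tfh and Th17 cells, rose 153-fold in Tfh (7.26 ± 0.26) and 74.8-fold in Th17 (6.22 ± 0.25). Atf3 is a stress-induced factor that pairs with Jun. It ran from 0 to 2.125 CPM across Tfh libraries, 0.849 to 1.98 in Th17 and 52.0 to 70.9 in Th1. Its log2 fold change was -7.50 ± 0.57 for Tfh and -5.39 ± 0.47 for Th17 against Th1 (edgeR adjusted p = 3.87e-09 and 3.79e-08). The Tfh libraries held 14 Atf3 counts in all and the Th17 libraries 76, against 4039 in Th1. These fold changes and p-values therefore rest on few counts outside Th1.

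Of 16 partner factors of AP-1, all tested, 5 rose and 2 fell in Tfh against Th17 cells, 10 rose and 4 fell in Tfh against Th1, and 7 rose and 4 fell in Th17 against Th1. Of all genes tested, 16.8%, 49.3% and 36.9% were called in these comparisons in the same order. Irf8, a partner of Batf and Batf3 at composite sites, was at 28.8 ± 10.1 CPM across Tfh libraries, 25.4 ± 5.21 in Th17 and 243 ± 56.3 in Th1, and fell 8.50-fold in Tfh (-3.09 ± 0.24, edgeR adjusted p = 3.75e-09) and 9.56-fold in Th17 against Th1. Irf4, the other such partner, chosen after its values were seen, was at 2478 ± 248 CPM across Tfh libraries, 2399 ± 167 in Th17 and 1798 ± 87.6 in Th1. It rose 1.38-fold in Tfh (0.46 ± 0.10, edgeR adjusted p = 0.000925) and 1.33-fold in Th17 (0.42 ± 0.10, edgeR adjusted p = 0.00315) against Th1. Bcl11b rose 1.64-fold (0.71 ± 0.13) and Runx3 fell 1.76-fold (-0.81 ± 0.25) in Tfh against Th17.

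Upstream of AP-1, 24 of 25 listed genes of the MAP kinase cascade were tested. In Tfh against Th17 cells 2 rose and 3 fell, among them Elk4, a factor at the Fos promoter (1.73-fold higher, 0.79 ± 0.14), and the p38 activator gene Map2k6 (1.86-fold lower, -0.89 ± 0.24). In Tfh against Th1 9 rose and 5 fell, and in Th17 against Th1 8 rose and 3 fell. Among all genes tested 16.8% were called in Tfh against Th17, 49.3% in Tfh against Th1 and 36.9% in Th17 against Th1. Mapk8, which encodes the Jun kinase JNK1, rose 3.16-fold in Tfh against Th1 (1.66 ± 0.19, edgeR adjusted p = 7.58e-07). Map3k8 fell 2.57-fold in Tfh (-1.36 ± 0.15) and 1.91-fold in Th17 (-0.93 ± 0.14) against Th1, and Map2k6 rose 3.05-fold in Th17 against Th1 (1.61 ± 0.25). Among 10 MAP kinase phosphatases tested none passed in Tfh against Th17 by edgeR, where 2 had an unadjusted p under 0.05, and none passed by limma-voom and 1 by DESeq2. Against Th1, 5 rose and 3 fell in Tfh and 3 rose and 2 fell in Th17, among them Dusp10 (3.94-fold and 3.51-fold higher) and Dusp5 (11.45-fold and 9.36-fold lower).

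Of 16 immediate early genes, 3 rose and 4 fell in Tfh against Th17 cells, 7 rose and 5 fell in Tfh against Th1, and 6 rose and 6 fell in Th17 against Th1. The shares of all genes tested that were called were 16.8%, 49.3% and 36.9% in the same order. Zfp36, an mRNA decay factor, was at 400.3 ± 46.7 CPM across Tfh libraries, 167 ± 20.8 in Th17 and 64.1 ± 11.8 in Th1, and rose 2.40-fold in Tfh against Th17 (1.26 ± 0.14, edgeR adjusted p = 7.51e-06). Nr4a2 fell 3.13-fold in Tfh against Th17 (-1.65 ± 0.16), and Ier3 fell 6.23-fold in Tfh (-2.64 ± 0.22) and 2.145-fold in Th17 (-1.10 ± 0.20) against Th1. The list thus held genes that ran with Fos and genes that ran against it.

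Of 22 tested genes listed as AP-1 targets in T cells, 4 rose and 11 fell in Tfh against Th17 cells, with a median of -1.002 beside -0.01 over all genes. Those that fell included Il17a (-3.88 ± 0.28), on which the Tfh sort acted. Il2, the T cell growth factor, fell by 6.99 ± 0.55 on the log2 scale (edgeR adjusted p = 1.97e-07) and Il10 rose 2.22-fold. Against Th1 cells 9 rose and 11 fell in Tfh, among them Il17f (4430 ± 754 CPM across Tfh libraries, 7.56 ± 6.02 in Th1) and Il3 (0.0197 ± 0.0441 in Tfh, 113 ± 17.2 in Th1), and 12 rose and 8 fell in Th17, among them Il17a, which rose, and Ifng, which fell and was used in the Th1 sort. Of 9 genes for turnover or cofactors of AP-1 proteins, 2 fell and 7 did not pass in Tfh against Th17, and 1 rose and 1 fell in each comparison with Th1. Beside these genes and the targets, 16.8% of all genes tested were called in Tfh against Th17. The share was 49.3% in Tfh against Th1 and 36.9% in Th17 against Th1. Nedd4, a ubiquitin ligase, was at 48.6 ± 14.1 CPM across Tfh libraries, 78.4 ± 7.54 in Th17 and 211 ± 17.5 in Th1, and fell in all comparisons (-0.69 ± 0.16, -2.12 ± 0.17 and -1.43 ± 0.16 in the order Tfh against Th17, Tfh against Th1 and Th17 against Th1). Ndfip1, an activator of such ligases, rose 1.31-fold in Th17 against Th1 (0.39 ± 0.12).

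The genes whose log2 CPM followed each member most closely over the 15 libraries were looked up among 8648 genes averaging at least 10 CPM. These values of Pearson's r are descriptions with no test, since the libraries share conditions and GC trends. For Batf3 they were Gstt2 (r = 0.993) and Anxa6 (0.992), for Fos Zfp36l1 (0.979) and Setd7 (0.971), and for Fosl2 Gtse1 (0.975) and Etv6 (0.972). For Batf they were Ncdn (0.917) and Zdhhc4 (0.904), for Jun Epg5 (0.892) and Bmp1 (0.892), for Junb Procr (0.964) and Kcnab2 (0.964), and for Jund Pitpnb (0.745) and Utp4 (0.739). For the sparse genes they were Pgp (0.876) and Tbc1d10b (0.801) with Fosb and Wrap73 (0.865) and Dusp1 (0.829) with Fosl1. Jund thus had no gene above 0.745, while Batf3 had its closest above 0.99.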

How the data were processed

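The files hold raw counts per gene as deposited, keyed by Entrez gene ID, for 15 bulk libraries. Per the submitters' processing notes, STAR 2.7.2b, featureCounts 1.6.4 and the mm10 build were used; strand settings were not given in the sources used here. Per the labels' protocols, libraries were made with the Lexogen SENSE mRNA-Seq V2 kit from 100 ng of RNA. Gene names came from RefSeq for 25275 IDs and from GENCODE for 18, and 1886 stayed unnamed. The tests were edgeR 4.0.16 quasi-likelihood tests in R 4.3.3 (TMM, filterByExpr, 1 fit over all libraries), with limma 3.58.1 and DESeq2 1.42.0 as alternatives, and were tested on simulated data. CPM used TMM library sizes. The GC correction removed a smooth trend on transcript GC from each library (91.6% of tested genes had a value). Floors are 3 counts, and intervals and floors cover counting error only. No libraries of a condition agreed within sampling noise (lowest chi-square per gene 9.51). From each list, the gene of largest rise and of largest fall in each comparison was named among those called, averaging at least 10 CPM in the higher condition and with no overlap of libraries, and for each member tested the 2 genes of highest correlation of log2 CPM. The members and lists were chosen with earlier results of these data known. Some genes that this rule or the marker lists name are not reported here.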

Additional observations from a re-analysis of the deposited data

Results flagged for a closer look

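Over 40 groups of 5 libraries that were examined, 2 held a library far from the others, and chance flags about 1 in 20 such groups. The total count of Th1 replicate 3 was 25.2 M counts, against 7.34 to 11.5 M in the other Th1 libraries. The log2 ratio of Junb to Jund counts was -2.09 in Th1 replicate 1, against -0.889 to -0.525 in the other Th1 libraries; this library also had the lowest rho of level with transcript GC content, -0.664, and the part of GC content in the ratio was not tested.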

How the results depend on the processing

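Of 27 member results, 15 kept their direction and their side of the threshold under every alternative, and so did 631 of 668 pairs of result and alternative. Values near 0 changed sign: Batf in Th17 against Th1 was -9.12e-05 with RLE size factors, -6.42e-05 with DESeq2, and -0.033 to 0.161 with 1 library left out; Fosl1 in Tfh against Th17 was -0.368 with limma-voom and -0.063 to 0.628 with 1 left out. Leaving out 1 library also gave -0.056 to 0.261 for Jun in Tfh against Th17, -0.055 to 0.116 for Jund in Th17 against Th1, and, for the Junb to Jund ratio, -0.331 to 0.078 in Tfh against Th1 and -0.059 to 0.389 in Th17 against Th1. It left 0 to 1 members higher in Tfh against Th17 and 1 to 2 in Th17 against Th1. Members lower in Tfh against Th17 numbered 1 with limma-voom and 1 with only those groups fitted, where fewer genes were tested and Batf3 gave no value; Fosb and Fosl1 gave none under the strict filter. With the GC correction 2 members were higher in Tfh against Th17 and 3495 genes were called, against 2113 without it, and the cause was not tested. With that correction Batf was newly called higher in Tfh against Th17 and in Tfh against Th1. Junb was newly called lower in both of these comparisons and higher in Th17 against Th1. With no length correction the largest mean share was 30.5% in Tfh (Batf), 31.3% in Th17 (Jund, with Batf at 20.5%) and 26.8% in Th1 (Jund, with Batf at 17.6%), and with coding length it was 40.9% in Th17 (Batf).

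Same-numbered libraries of different conditions had correlations of -0.102 to 0.57 (median 0.061), 7 of the 15 pairs were over 0.1, among them all pairs of replicates 2 and 4, and 5 of 15 libraries correlated best with their own number. Since not every pair was over 0.1 and no label ties the numbers, they were not taken to pair the samples. A replicate block called 2941, 6923 and 5487 genes in Tfh against Th17, Tfh against Th1 and Th17 against Th1, against 2113, 6206 and 4642 without it. It called Batf in Tfh against Th17 (0.357, adjusted p 0.0195 by edgeR) and in Tfh against Th1 (0.445, adjusted p 0.00166 by edgeR) and Junb in Tfh against Th17 (-0.58, adjusted p 0.0199 by edgeR), and so 2 members higher in Tfh against Th17; with the GC correction and the replicate block these were 4008 genes and 2 members. Under the replicate block the Fosl2 to Fos differences (-1.51, -3.25, -1.74) and the Batf to Batf3 differences (3.47, 10.2, 6.71) had an adjusted p of 0.0938 by exact sign flips, whose smallest unadjusted p is 0.0625.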
